A study of Mus musculus with 2 samples.

Results

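Anchor hubs are stretches of the genome at which many chromatin loops end. They were chosen by the number of listed loops: the mm10 autosomes were divided into bins of 50 kb, both anchor midpoints of each loop of a sham list and of a stroke list were placed in the bins, and a bin with at least 6 loops over both lists was taken as a hub. This gave 1312 hub bins among 27539 autosomal bins with any loop, and among 49214 autosomal bins up to the last annotated gene of each chromosome. A loop with both ends in 1 bin was counted once there, and a loop found in both lists counted in each.

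The libraries were Hi-C, which joins and sequences DNA fragments that lie close together in the nucleus, from mouse cortex on the operated side. In the MCAO group the middle cerebral artery was closed for 1 h with a filament passed up the carotid artery, and tissue was taken after 6 h of reperfusion. The sham group had the operation without the filament being advanced, with the same 6 h of recovery. Strain and age are not stated in the labels used here. The labels name 3 cortices per group, with 1 loop list per group, so differences between the lists have no replicate check and are given without a test or a p-value. Bulk cortex holds neurons, glia, vessel cells and blood cells, and a change in the share of a cell type cannot be told apart from a change within cells. Loop lists hold no expression levels, so the tissue label could not be checked against its markers.

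A chromatin loop brings distant stretches of a chromosome together. Many form when the ring-shaped cohesin complex extrudes DNA until it meets the insulator protein CTCF, whose bound motifs usually face each other at the loop ends. Others join promoters to enhancers, and a single element can take part in several loops, at different times or in different cells. In neurons, long regulatory landscapes around developmental transcription factors and synaptic genes are known for such contacts.

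Promoter sequences are shown first for 5 starts inside hub bins, since the loops of a hub may end anywhere in its 50 kb and the start is the annotated element within it. Windows run from 250 bases before to 50 after the start, were taken from RefSeq on GRCm38.p6, the assembly of mm10, and are written 5′ to 3′ along the gene. Cetn3 (centrin 3, a centrosome protein) lay in a hub of 19 loops, and Bdnf (a neurotrophin induced by neuronal activity) in a hub of 11 loops. Both windows hold a match to a pattern for the core of the CTCF motif, searched on both strands. The pattern was CCA, any 2 bases, AG, any 2 bases and GGC. Capitals mark the match, at bases 209 to 220 for Cetn3 and 233 to 244 for Bdnf. Since the pattern has open bases, a match does not show that CTCF binds there. The windows of Mef2c (an activity-dependent neuronal transcription factor), Opa1 (a GTPase of mitochondrial fusion) and B3galt2 (a galactosyltransferase) had no such match. A match was rare at hubs, in 14 of 805 start windows (1.74%) against 2.39% of all windows, so the 5 shown are not typical in this. Opa1 and B3galt2 had the widest differences in loop number, in opposite directions, among hubs with a start in that table.
Cetn3, chr13:81782997-81783296, plus strand: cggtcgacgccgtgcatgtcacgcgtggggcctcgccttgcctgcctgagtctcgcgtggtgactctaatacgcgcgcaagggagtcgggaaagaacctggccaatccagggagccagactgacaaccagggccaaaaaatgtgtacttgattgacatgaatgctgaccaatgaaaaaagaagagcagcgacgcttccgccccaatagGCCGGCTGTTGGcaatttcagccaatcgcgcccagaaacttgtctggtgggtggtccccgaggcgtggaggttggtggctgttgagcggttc
Bdnf, chr2:109692186-109692485, plus strand: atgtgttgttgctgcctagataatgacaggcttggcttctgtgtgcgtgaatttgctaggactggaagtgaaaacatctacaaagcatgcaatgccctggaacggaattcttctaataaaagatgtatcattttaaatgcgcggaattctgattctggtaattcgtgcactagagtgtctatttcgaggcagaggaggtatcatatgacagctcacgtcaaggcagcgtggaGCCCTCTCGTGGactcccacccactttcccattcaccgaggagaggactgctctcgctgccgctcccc
Mef2c, chr13:83523406-83523705, plus strand: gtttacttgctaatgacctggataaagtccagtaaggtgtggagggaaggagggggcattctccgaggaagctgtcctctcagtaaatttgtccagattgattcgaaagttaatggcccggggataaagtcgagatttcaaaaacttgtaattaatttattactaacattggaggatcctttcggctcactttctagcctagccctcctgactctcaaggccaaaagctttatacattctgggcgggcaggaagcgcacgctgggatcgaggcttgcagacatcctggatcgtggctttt
Opa1, chr16:29579084-29579383, plus strand: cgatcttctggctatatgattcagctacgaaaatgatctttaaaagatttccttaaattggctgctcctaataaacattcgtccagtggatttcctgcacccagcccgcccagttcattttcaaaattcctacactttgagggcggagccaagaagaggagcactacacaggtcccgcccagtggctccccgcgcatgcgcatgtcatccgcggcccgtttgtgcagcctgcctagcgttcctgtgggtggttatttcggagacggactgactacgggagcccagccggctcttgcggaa
B3galt2, chr1:143640447-143640746, plus strand: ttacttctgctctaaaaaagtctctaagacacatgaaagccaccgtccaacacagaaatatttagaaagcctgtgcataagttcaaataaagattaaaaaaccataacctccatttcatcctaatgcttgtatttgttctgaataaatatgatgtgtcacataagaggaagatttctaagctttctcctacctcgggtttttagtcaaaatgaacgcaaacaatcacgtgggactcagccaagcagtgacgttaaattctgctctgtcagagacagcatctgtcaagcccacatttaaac

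Mature microRNAs are shown for brain-enriched microRNA genes whose own position was inside a hub bin, since several of these bins held no protein-coding gene. The sequences are RefSeq's, and capitals mark the seed, bases 2 to 8, which pairs with target messages. miR-132-3p and miR-212-3p, encoded side by side, share the seed AACAGUC.
miR-9-5p: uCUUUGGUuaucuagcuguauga
miR-132-3p: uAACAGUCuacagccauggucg
miR-212-3p: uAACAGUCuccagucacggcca
miR-137-3p: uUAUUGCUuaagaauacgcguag
miR-125b-5p: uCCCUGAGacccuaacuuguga

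Both libraries contributed to nearly all hubs. Of the 1312, 1299 had a loop in each list, 10 had none in sham and 3 had none in MCAO. The loop number per hub ranged from 6 to 20 with a median of 7. The median was 3 in sham (range 0 to 12) and 4 in MCAO (range 0 to 12). The hubs with exactly 6 loops, just inside the limit, numbered 600, with means of 2.70 sham and 3.30 MCAO loops. The 1018 bins with 5 loops, just outside it, had means of 2.23 and 2.77. At least 10 loops were found at 132 hubs. Taken alone, the sham list had at least 6 loops at 99 bins and the MCAO list at 153, of which 30 were the same bins.

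**Figure D1:**
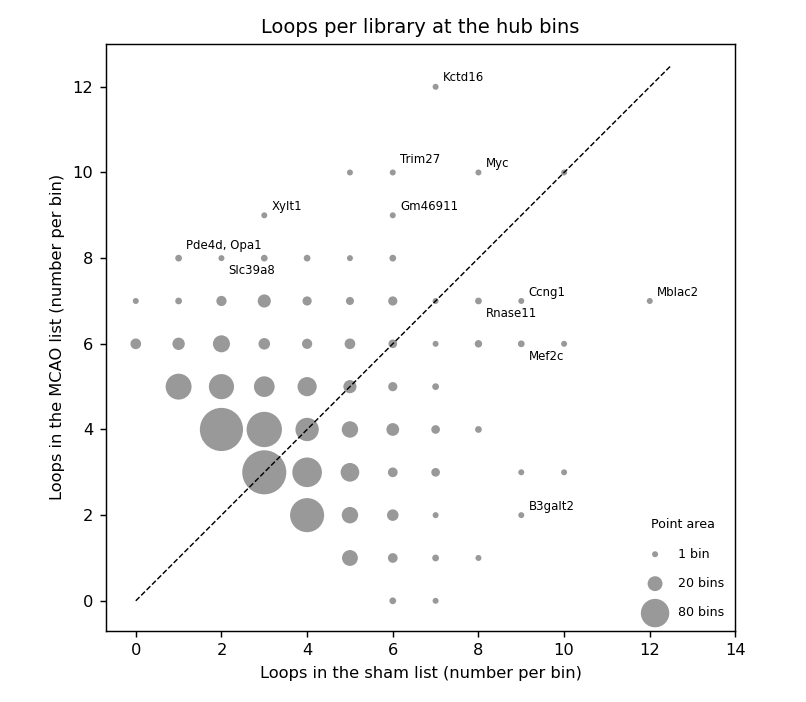
Number of loops in the sham list (x axis) and in the MCAO list (y axis) at each of the 1312 hub bins; point area grows with the number of bins at that position, and the dashed line marks equal numbers. Most hubs lie near 3 or 4 loops in each list, and few lie on either axis: 10 have no sham loop and 3 no MCAO loop.

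The choice used the sum of both lists, so the loop numbers above are a description. A measure that did not use it was obtained by choosing bins in 1 list and counting loops in the other. The 676 bins with at least 4 sham loops had a mean of 2.84 MCAO loops (95% Poisson interval 2.71 to 2.97), against 1.11 over all bins with a loop. The 1107 bins with at least 4 MCAO loops had a mean of 2.27 sham loops (2.18 to 2.36), against 1.05 over all such bins. The mean rose with the loop number in the first list, from 0.749 at bins with 1 sham loop to 5.61 (4.57 to 6.82) at the 18 bins with 8 or more. Bins with 6 and with 7 sham loops differed little, at 3.92 and 3.89. In the other direction it went from 0.673 at bins with 1 MCAO loop to 4.71 (3.73 to 5.86) at the 17 bins with 8 or more. Of the bins with at least 4 loops in sham, 10.5% had no loop in MCAO, against 31.6% of all bins with a loop. Of those with at least 4 in MCAO, 13.1% had none in sham, against 30.1%. The bins with a loop used as reference have it in either list. The list counted thus helped choose them, and their values are partly set by this. Of bins with exactly 1 sham loop, chosen in sham alone, 52.7% had no loop in MCAO. Of those with exactly 1 MCAO loop, 53.1% had none in sham.

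**Figure D2:**
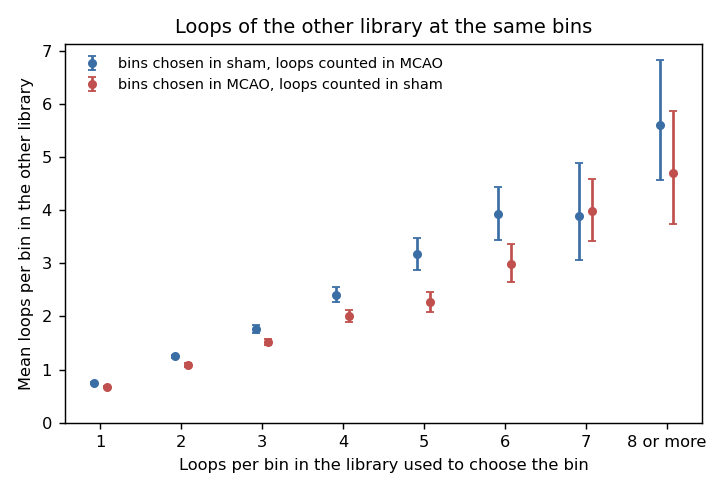
Mean number of loops in the library not used for the choice (y axis) at bins grouped by their loop number in the library used (x axis); bars are 95% Poisson intervals, which cover counting error only. Bins chosen in sham go from 0.749 to 5.61 MCAO loops and bins chosen in MCAO from 0.673 to 4.71 sham loops.

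Anchors in hub bins also had more reads. The median was 25.8 reads per kb of anchor in sham and 28.6 in MCAO, against 23.8 and 27.2 at bins with 5 loops and 20.8 and 23.0 at bins with 1 loop. Their median width was 25.1 kb in sham and 21.6 kb in MCAO, and the loops had a median of 15 paired-end tags (PETs, read pairs that join both anchors), against 12 at loops with no end in a hub. The part of read density in the loop number was not tested.

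As listed, more of the MCAO list ended at hubs than of the sham list. Hubs took 3885 of 14510 autosomal sham loops, or 26.8% (exact Clopper-Pearson interval 26.1 to 27.5), and 4561 of 15384 MCAO loops, or 29.6% (28.9 to 30.4). The ratio of MCAO to sham loops was 1.17 (exact binomial interval 1.12 to 1.23) at hubs and 1.02 (0.992 to 1.05) elsewhere. The MCAO library was also deeper, with 40550536 against 34974213 PETs, a ratio of 1.16. Per PET the hub ratio was 1.01 (0.970 to 1.06), against 0.879 (0.855 to 0.902) elsewhere. When MCAO loops were kept only where their PETs, scaled to the sham total, reached the limit of 10 in the lists, 9580 autosomal MCAO loops remained against 14510 in sham, a ratio of 0.660. This setting takes loops of 10 or 11 PETs from the MCAO list only, and so lowers MCAO numbers everywhere. At the same 1312 hubs the ratio was then 0.838 (0.799 to 0.878), against 0.595 (0.577 to 0.614) elsewhere, and at hubs chosen again from these loops it was 0.852 (0.807 to 0.900), against 0.614 (0.596 to 0.632). Whether hubs had more or fewer loops in MCAO than in sham thus depended on how depth was treated. The ratio was higher at hubs than elsewhere as listed, per PET and at the scaled depth. With at least 15 PETs required in both lists, 6197 MCAO and 5234 sham autosomal loops remained. At the 204 hubs chosen again from these the ratio was 1.08 (0.969 to 1.20), lower than over all of them, so this order depended on the minimum of PETs. The hub choice used the sum of the numbers compared here, so these ratios are a description. Bins with 5 loops also had more MCAO loops, with means of 2.23 sham and 2.77 MCAO. Bins with 1 loop had means of 0.523 sham and 0.477 MCAO. Those with 10 loops had 4.71 and 5.29, and those with 15 loops 7.5 and 7.5. The balance thus changed with loop number, and a higher ratio was not particular to hubs.

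By bin, 652 hubs had more loops in MCAO, 389 had fewer and 271 had equal numbers, and at the scaled depth these were 410, 654 and 248. Since the scaling can only lower MCAO numbers, the counts at the scaled depth here and below show how far a split leans on loops of 10 or 11 PETs, and are to be read against the ratio of 0.660 over all loops. At least 2-fold more loops in MCAO were found at 411 hubs, 31.3%, and at least 2-fold more in sham at 206, 15.7%. Over the 7824 bins with 3 or more loops the shares were 41.3% and 29.8%, and over bins with 5 loops 20.4% and 6.97%. At least 4-fold differences were found at 94 hubs (7.16%) toward MCAO and 37 (2.82%) toward sham, against 10.4% and 6.53% of bins with 3 or more loops and 20.4% and 6.97% of bins with 5 loops. At these small numbers the share past a given fold is set largely by which splits of the total reach it, and the hub choice used the sum of the numbers compared. At the 791 hubs chosen again with MCAO loops scaled to the sham depth the order turned, with 16.3% toward MCAO and 29.5% toward sham.

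The partners of hub loops were far away. Their median distance was 480 kb in sham (order-statistic interval 461 to 500) and 420 kb in MCAO (403 to 439), against 350 kb (341 to 359) and 273 kb (264 to 281) for loops with no end in a hub. Loops over 1 Mb made up 19% of hub loops in sham and 16.1% in MCAO, against 8.90% and 6.33% elsewhere. Loops under 100 kb made up 8.93% and 10.0%, against 16.9% and 19.1%. Hub loops were longer than the others in both libraries, and shorter in MCAO than in sham. At the 791 hubs chosen again at the scaled depth the medians lay closer together than as listed, 520 kb for sham and 513 kb for MCAO.

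**Figure D3:**
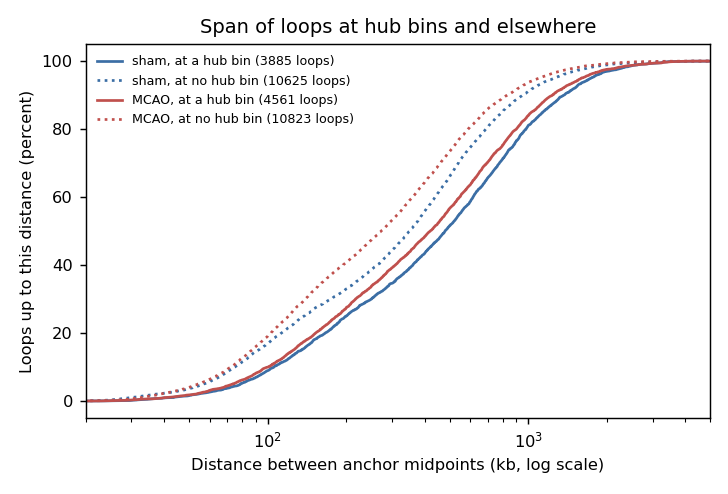
Cumulative percent of loops (y axis) up to a given distance between anchor midpoints (x axis, kb, log scale), for loops with an end in a hub bin (solid) and with none (dotted), in sham (blue) and MCAO (red). Both solid lines lie to the right of both dotted lines around the median, at 480 kb and 420 kb against 350 kb and 273 kb.

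Hub loops were found more often in both lists. A loop was called shared when the other list held a loop with both midpoints within 1 anchor width of it. At hubs 47.6% (46.0 to 49.2) of sham loops and 42.5% (41.1 to 44.0) of MCAO loops were shared, against 17.7% and 17.5% of loops with no end in a hub. A shared loop enters the hub rule from each list, so part of this gap belongs to the choice, and it is given as a description. Loops that joined one hub bin to another numbered 515 in sham and 566 in MCAO. Of these, 70.7% (66.5 to 74.6) and 67.5% (63.5 to 71.3) were shared.

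Direction was the next feature of the partners. At 849 hubs, 64.7% (62.1 to 67.3), at least 80% of partners lay on 1 side, 412 toward higher coordinates and 437 toward lower. At bins with 5 loops the share was 73.9%. The limit of 80% is met more easily by 4 of 5 loops than by 5 of 6 or 6 of 7, so these shares are not compared. All partners lay on 1 side at 529 hubs (40.3%). The side was compared between libraries at 741 hubs with at least 3 sided loops in each. A side with more loops existed in both libraries at 675 of them, and it was the same side at 597, 88.4% (85.8 to 90.8). Among the 315 hubs whose loops all lay on 1 side within each library, the side was the same at all 315. Shared loops enter both sides of this comparison. Without them 69 hubs could be compared, and the side was the same at 51, 73.9% (61.9 to 83.7).

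Partners lay about evenly upstream and downstream of starts. At 400 hubs whose starts in the table were all on 1 strand, 48.6% (45.9 to 51.3) of 1339 sham partners and 50.2% (47.8 to 52.7) of 1660 MCAO partners lay downstream.

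A protein-coding gene overlapped 983 hub bins, 74.9% (72.5 to 77.2), and a protein-coding start lay in 494, 37.7% (35.0 to 40.3), counting the 16457 of 20665 genes whose start is in the promoter table. Among all autosomal bins the shares were 57.0% and 24.5%, and among bins with 1 loop 57.2% and 23.1%. Bins with 5 loops had 74.9% and 35.9%, close to those of hubs. At hubs with 10 or more loops a start was present in 49.2% (40.4 to 58.1), and any coding gene in 74.2% (65.9 to 81.5). No coding gene, long noncoding RNA or microRNA gene was annotated in 180 hubs (13.7%). Hubs without a coding gene reached further, with median spans of 643 kb in sham and 596 kb in MCAO against 421 and 369 kb at hubs with one. The ratio of MCAO to sham loops was 1.21 (1.15 to 1.27) at hubs with a coding gene and 1.07 (0.982 to 1.16) at the 329 without, both before any scaling for depth.

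Starts inside hubs were often rich in CpG, the dinucleotide that marks many broadly used promoters. Of 805 start windows in hubs, 52.4% (48.9 to 55.9) had over 55% G and C and a ratio of observed to expected CpG over 0.6. The share was 41.9% over all 20085 windows, 51.4% (47.5 to 55.4) in bins with 5 loops and 29.2% (28.1 to 30.3) in bins without a loop. A match to the CTCF pattern was present in 14 hub windows, 1.74% (0.954 to 2.90), against 2.39% (2.19 to 2.62) of all windows. In bins with 5 loops it was present in 2.68% (1.57 to 4.26), and in bins without a loop in 2.05% (1.73 to 2.41). The windows cover 300 bases of each start and not the loop anchors, so they say nothing about CTCF elsewhere in the bins.

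Genes were then grouped by function, as the number of genes of each list that overlapped a hub. The hub rule and the lists were chosen with earlier results of these data known. The shares are therefore a description, and their intervals cover counting error only. Over all 20665 autosomal protein-coding genes, 1336 did, 6.47% (6.13 to 6.81). Long genes span more bins: the share was 4.43% for genes up to 50 kb, 9.97% for 50 to 200 kb and 26.8% (24.0 to 29.7) for longer ones. Neuronal transcription factors overlapped hubs in 22 of 43 cases, 51.2% (35.5 to 66.7), with a median gene length of 30.2 kb. Cell adhesion genes did so in 24 of 55 (43.6%, 30.3 to 57.7) and axon guidance genes in 18 of 42 (42.9%, 27.7 to 59.0), with median lengths of 371 and 166 kb. Immediate early genes, which are switched on within minutes of stimulation, overlapped hubs in 9 of 29 (31.0%, 15.3 to 50.8) with a median length of 5.30 kb. Glutamate and GABA receptor genes did so in 9 of 33 (27.3%, 13.3 to 45.5), and ion channel genes in 6 of 35 (17.1%, 6.56 to 33.6), with median lengths of 240.1 and 222 kb. Housekeeping genes overlapped hubs in 4 of 18 (22.2%, 6.41 to 47.6), which was 5.56% with bins starting 25 kb later, against 6.27% of all genes.

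**Figure D4:**
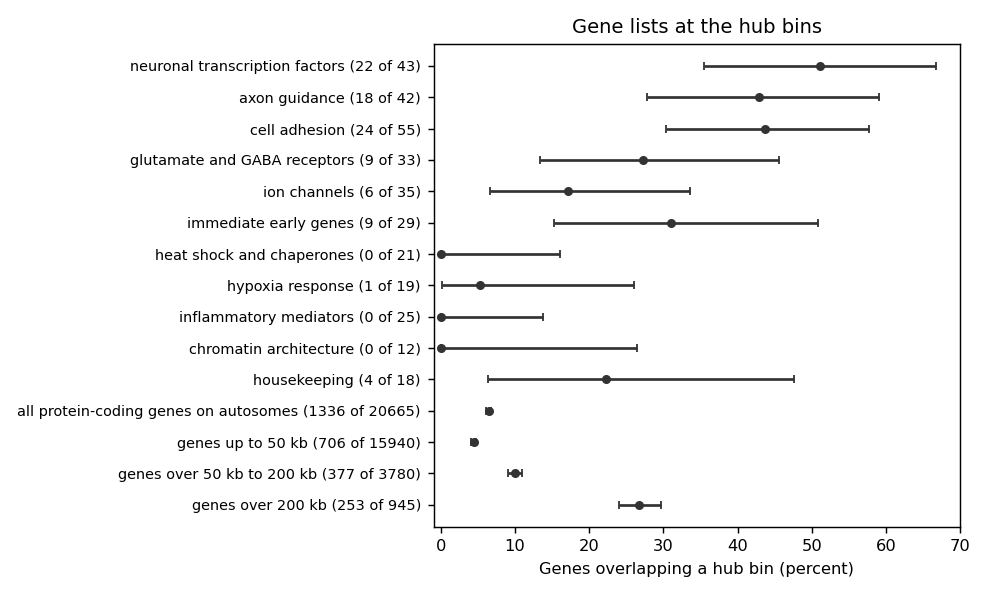
Percent of the genes of each list that overlap a hub bin (x axis), with exact Clopper-Pearson 95% intervals, beside all autosomal protein-coding genes and 3 classes of gene length. Neuronal transcription factors stand at 51.2% against 6.47% of all genes, and heat shock, inflammatory and chromatin architecture genes at 0. The lists and the hub rule were chosen with earlier results of these data known.

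None of 21 heat shock and chaperone genes, 25 inflammatory mediators or 12 genes of chromatin architecture overlapped a hub, which allows shares of up to 16.1%, 13.7% and 26.5%. Of 19 hypoxia response genes 1 did, Pfkfb3 (a regulator of glycolysis), with 4 sham and 2 MCAO loops. These shares cannot be told from that of all genes at such list sizes, and with bins starting 25 kb later the heat shock share was 14.3% and the inflammatory share 8%. Cell type markers in hubs were Syt1 of 3 neuronal markers, Bcl11b and Tbr1 among the 3 of 7 excitatory ones, Slc1a3 and Sox9 of 6 of astrocytes, and Pdgfra of 5 of the oligodendrocyte lineage. The 6 inhibitory neuron markers and the 3 each of microglia, vessel cells and blood leukocytes were outside hubs.

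Among the transcription factors, Mef2c overlapped 3 hubs with 9, 5 and 3 sham loops and 6, 3 and 4 MCAO loops. Bcl11a, a zinc finger factor of cortical projection neurons, had 5 sham and 6 MCAO loops, and Bcl11b, which specifies corticospinal neurons, had 2 and 6. Pou3f2, an upper-layer factor, had 5 in each. Tbr1 (corticothalamic neurons) had 2 and 5, Zeb2, a zinc finger repressor, overlapped 2 hubs with 3 and 3 sham loops and 4 and 3 MCAO loops, and Satb1 had 5 and 1. Mef2a overlapped 2 hubs with 3 and 1 sham loops and 5 and 6 MCAO loops. In all, 11 of the 22 had more loops in MCAO, 5 had fewer and 6 had equal numbers, which at the scaled depth became 6, 10 and 6. Over all 1312 hubs, 652 had more, 389 fewer and 271 equal numbers, and at the scaled depth 410, 654 and 248. The split of these genes was thus close to that of hubs in general.

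All 9 immediate early genes in hubs had a start there. Bdnf had 6 sham and 5 MCAO loops at the bin that holds the start shown above. Klf4 and Klf6, zinc finger transcription factors, had 5 in each list, and Dusp6, a phosphatase of ERK, had 4 in each. Jun, an AP-1 subunit, overlapped 2 hubs with 2 and 3 sham loops and 6 and 4 MCAO loops. Ier3 and Btg2, stress-induced regulators of survival and growth, had 1 sham and 5 MCAO loops each. Fosl2 and Nr4a2 had 3 in each list. So 3 of the 9 had more loops in MCAO, 1 had fewer and 5 were equal, and at the scaled depth 3, 3 and 3. For all 1312 hubs these numbers were 652, 389 and 271, and at the scaled depth 410, 654 and 248. Ier3 shares its bin with Tubb5, a housekeeping tubulin gene, so these are the same loops.

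Among receptor genes, 3 of 9 had more loops in MCAO, 5 had fewer and 1 was equal, and at the scaled depth 1, 7 and 1. All 1312 hubs were split 652, 389 and 271, and at the scaled depth 410, 654 and 248. Grm3, a metabotropic glutamate receptor, overlapped 2 hubs with 6 and 5 sham loops and 4 and 2 MCAO loops. Grm5 had 6 and 4, and Grm7 overlapped 2 hubs with 6 and 2 sham loops and 1 and 4 MCAO loops. Gabrb2, a GABA-A receptor subunit, overlapped 3 hubs with 4, 3 and 3 sham loops and 4, 4 and 3 MCAO loops. Gria1, an AMPA receptor subunit, and Grid1 had 2 and 4 each.

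Of the 24 adhesion genes, 12 had more loops in MCAO, 5 fewer and 7 equal numbers, which became 8, 13 and 3 at the scaled depth. Beside these stand the 1312 hubs, with 652, 389 and 271, and at the scaled depth 410, 654 and 248. Pcdh9 and Pcdh10, protocadherins of separate chromosomes, each had 6 sham and 7 MCAO loops at their starts. Flrt2 overlapped 3 hubs with 5, 6 and 5 sham loops and 7, 4 and 1 MCAO loops. Ncam1 had no sham loop and 6 MCAO loops in its hub. Nlgn1, a postsynaptic neuroligin, had 2 and 6, and Alcam, an immunoglobulin-family adhesion gene, overlapped 2 hubs with 6 and 5 sham loops and 5 and 1 MCAO loops. Among 18 guidance genes, 8 had more loops in MCAO, 4 fewer and 6 equal numbers, which became 7, 9 and 2 at the scaled depth. Efnb2, an ephrin ligand, had 4 and 7, its receptor family member Epha4 had 5 and 3, and the semaphorin Sema6d had 3 and 8. Nrp1, a semaphorin co-receptor, had 5 in each, and the repellent Slit2 had 6 and 4.

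The hub of Mblac2 and Cetn3 (chr13:81750001-81800000) had 12 sham and 7 MCAO loops, 16 of 19 toward higher coordinates. Its partners lay from 149 kb to 2974 kb away, with a median of 1149 kb. In sham the PETs per loop ran from 10 to 27 and summed to 195, and in MCAO from 10 to 30 with a sum of 128. The strongest loops of the lists were a sham loop of 27 PETs over 1322 kb, with an MCAO loop of 10 PETs over 1343 kb, and an MCAO loop of 30 PETs over 1166 kb, with a sham loop of 23 PETs over 1149 kb. The 2 longest loops, of 2582 kb (11 PETs) and 2974 kb (23 PETs), were listed in sham only.

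The first Mef2c bin (chr13:83500001-83550000) had 9 sham and 6 MCAO loops, with 13 of 15 partners at lower coordinates. PETs per loop ran from 11 to 44 in sham, with a sum of 195, and from 10 to 80 in MCAO, with a sum of 171. The strongest MCAO loop reached 1711 kb, to an anchor that overlaps the Mblac2 and Cetn3 bin, with 80 PETs, where sham listed separate loops of 19 PETs over 1742 kb and 30 PETs over 1686 kb. The strongest sham loop had 44 PETs over 900 kb, where MCAO had 34 PETs over 939 kb. Sham loops of 591, 445 and 400 kb with 11 to 15 PETs had no MCAO counterpart.

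**Figure D5:**
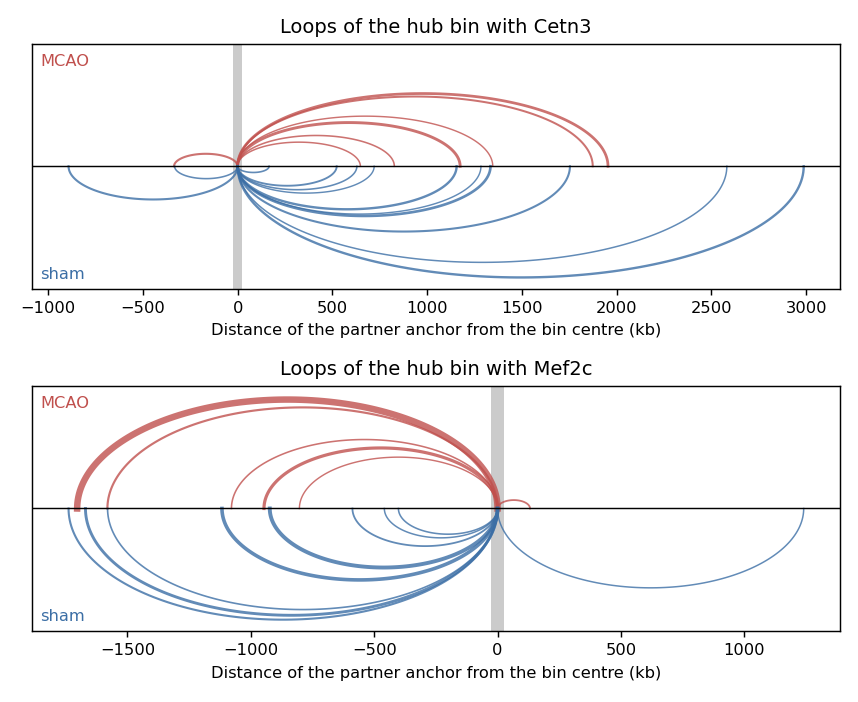
Loops of the hub bins with Cetn3 (top) and with Mef2c, the bin of 15 loops (bottom), drawn from the bin (grey) to each partner's distance from the bin centre in kb; MCAO loops are above the line and sham loops below, line width grows with PETs, and arc height follows distance only. At Cetn3 16 of 19 loops run to higher coordinates, and at Mef2c 13 of 15 run to lower ones.

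Other hubs among the 10 with the most loops follow in order. Kctd16, which encodes an auxiliary subunit of GABA-B receptors, had 7 sham and 12 MCAO loops, all 19 toward higher coordinates. The bin of Myc, a growth-promoting transcription factor, had 8 and 10. Ccng1, which encodes cyclin G1, had 9 and 7, all toward higher coordinates. Trim27, an E3 ubiquitin ligase gene, had 6 and 10.

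The bin at chr13:84750001-84800000, with the long noncoding RNA Gm34196 and no protein-coding gene, had 10 sham and 6 MCAO loops, all 16 toward lower coordinates. Cpeb2, a regulator of translation, shared its bin with Gm46911 and had 6 and 9. The bin of Ang and Rnase4, secreted ribonucleases, had 8 and 7. Its median span was 258 kb, and those of the other hubs named here ran from 766 kb (Cpeb2) to 1536 kb (Ccng1).

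The widest excess in MCAO was 7 loops, at 3 hubs. Opa1 had 1 sham loop of 28 PETs and 8 MCAO loops of 132 PETs in sum, all toward lower coordinates. Pde4d, a cyclic AMP phosphodiesterase, also had 1 and 8. Xylt1, which starts glycosaminoglycan chains, had 3 and 9, and Slc39a8, a zinc and manganese importer, had 2 and 8. Some of these loops were near the limit of the lists. With at least 15 PETs required, Pde4d had 1 sham and 2 MCAO loops, Xylt1 2 and 5, Slc39a8 1 and 5 and Opa1 1 and 6. With MCAO loops scaled to the sham depth, MCAO numbers at these bins were 5 for Pde4d, 7 for Opa1, 6 for Xylt1 and 6 for Slc39a8, each still above sham.

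The widest excess in sham was also 7 loops, at 4 hubs, of which 1 held a protein-coding gene. B3galt2 shared its bin with Cdc73, a subunit of a transcription elongation complex, and had 9 sham loops of 141 PETs and 2 MCAO loops of 37, all toward lower coordinates. With at least 15 PETs it had 3 and 2. The bin at chr3:17750001-17800000, with the microRNA gene Mir124a-2, had 10 and 3, and with at least 15 PETs 7 and 2. At chr11:25300001-25350000, with no protein-coding gene, there were 8 and 1, and with at least 15 PETs 5 and 1. The bin at chr5:84650001-84700000 had 7 and 0, none of them reaching 15 PETs, and chr13:4650001-4700000 had 9 and 3, of which 4 and 1 reached 15. An excess of 6 loops was also found at other hubs, and ties were broken by the larger total, so that Pfdn4 and Cdc25a, with 1 sham and 7 MCAO loops each, and the bin of Grpel1 and Tada2b, with 7 and 1, came after those named. At all 10 hubs with the widest differences the Poisson intervals of the numbers overlapped, for example 3.45 to 15.8 for 8 loops and 0.0253 to 5.57 for 1. These bins were ranked by the difference itself, so their values are a description.

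MicroRNA genes were in hubs about as often as short coding genes, at 49 of 1136 (4.31%, 3.21 to 5.66) against 4.43% of coding genes up to 50 kb. This class was looked at after hub contents were seen. They lay in 37 hubs, of which 11 held no protein-coding gene, and mature sequences were matched for 41. Mir9-2, which makes the neural miR-9-5p shown above, lay in a hub with 6 sham and 7 MCAO loops of 289 and 232 PETs. Mir137, a regulator of neuronal maturation, had 6 and 3, with a median span of 1295 kb. The pair Mir132 and Mir212, which carry the shared seed and respond to neuronal activity, lay in 1 hub with 5 loops in each list. Mir125b-2 had 5 and 4, and Mir124a-1 had 4 and 5, all 9 toward lower coordinates.

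Of the 8446 loops at hubs, 1081 joined one hub to another. Linking hub bins that shared a loop gave 289 networks of at least 2 bins with 801 hubs, 61.1% of all, while 511 hubs were joined to none. Bins chosen for many loops have more loops that can reach another hub. The share that follows from loop number alone was not computed, so these numbers are a description. Only 101 hubs (7.70%) had another hub as direct neighbour. Networks of at least 5 hubs numbered 22, and 5 of the 6 largest are described here. A loop between 2 hubs counts at both, so the bins of a network are not separate observations of the balance between lists. Over all hubs 652 had more loops in MCAO, 389 fewer and 271 equal numbers, and at the scaled depth 410, 654 and 248.

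The largest network had 13 hubs over chr13:80850001-84800000, with 23 sham and 19 MCAO loops between them and a median span of 888 kb. It ran from Arrdc3, an arrestin-domain gene, past Mblac2 and Cetn3 to 3 bins of Mef2c, the Mir9-2 bin and on to the Gm34196 bin. Protein-coding genes overlapped 5 of the 13 bins. Fewer loops in MCAO than in sham were found at 10 of the 13 and more at 3. At the scaled depth 10 had fewer, 2 had more and 1 was equal, a setting that could not turn a balance toward sham.

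The second network had 11 hubs over chr13:20300001-23800000, all with protein-coding genes, and 9 sham and 19 MCAO loops between them. It held Trim27, Abt1 (a basal transcription activator) and many histone genes, which include those expressed in S phase to package new DNA. Histone genes were taken by symbol, as H1f, H2ac, H2bc, H3c or H4c with a number. The symbol does not tell whether a gene is expressed in S phase. Of 53 such genes on chromosome 13, 41 lay in hubs (77.4%, 63.8 to 87.7). Of 14 elsewhere on autosomes none did, which allows up to 23.2%. The class was chosen after its values were seen, and its genes share a few bins. More loops in MCAO were found at 8 of these 11 hubs, fewer at 1 and equal numbers at 2, and at the scaled depth 6, 2 and 3. The Prss16 bin, with 5 histone genes, had 6 sham and 7 MCAO loops, and the Abt1 bin had 4 and 8.

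On chromosome 11 a network of 8 hubs spanned chr11:24000001-27000000 and included Bcl11a. Only 2 of the 8 held a coding gene, and each list had 10 loops between them. The network of Pde4d, Plk2 (an activity-induced kinase that weakens synapses) and Gpbp1 had 8 hubs, 7 with more loops in MCAO and 1 equal, and at the scaled depth 4 had more, 1 had fewer and 3 were equal. The network from Smc6 and Vsnl1 past Cyria to Mycn, a growth-promoting factor of neural progenitors, had 7 hubs, 6 with more loops in MCAO and 1 with fewer. At the scaled depth it had 3, 2 and 2.

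Hubs were found on all 19 autosomes. Chromosome 13, with the 2 largest networks, had the highest share of its bins with a loop, 96 hubs or 7.08%, and chromosome 17 the lowest, 34 or 3.49%. In all, 8 genes overlapped 3 hubs each, among them Arhgap26, Flrt2, Gabrb2, Mef2c, Myo1d, Ntm and Pde4d. Their lengths ran from 93.2 kb for Flrt2 to 1302 kb for Pde4d.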

How the data were processed

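Chromatin contacts of mouse cortex were read by Hi-C, with the Arima chemistry named in the labels' protocols. The labels name 3 cortices for each group and do not say whether they were pooled. A single loop list represented each group. HiC-Pro and Bowtie2 were used on mm10, per the submitters' processing notes. Which program called the loops was not stated there. PETs per loop and reads per anchor are raw counts, as the authors deposited them. The deposited signal called density equals the PETs divided by anchor length in kb and by the library total in units of 1000000 PETs, and so gave the totals used as depth, 34974213 for sham and 40550536 for MCAO. Both lists hold loops of at least 10 PETs, so an absent loop may lie just below that limit.

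Distances, midpoints and bins were computed from the deposited coordinates with pandas 2.3.3, numpy 2.4.6, scipy 1.17.1 and networkx 3.6.1. The rule gives autosomes only. Genes, promoters and microRNAs came from RefSeq tables on GRCm38.p6, where 16457 of 20665 protein-coding genes had a promoter window. Intervals are exact at 95% and cover counting error only, since nothing shows that each PET is a separate molecule. Groups were taken from the sample titles. Named genes lie in the 10 hubs with most loops, in the 5 with the widest difference in each direction, or belong to a gene list and overlap a hub. A few genes and hubs chosen this way are not reported here. Genes of the histone, microRNA and network paragraphs were chosen after their values were seen. The hub rule and the gene lists were chosen with earlier results of these data known. Alternatives changed bin position, bin size, the minimum of loops or PETs, depth, the pairing of loops between lists and the placing of anchors. The code that finds hubs and counts their loops and sides was tested on simulated loops with planted hubs. No other result was tested in this way.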

Additional observations from a re-analysis of the deposited data

Results flagged for a closer look

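The X chromosome lies outside the rule and was not used in the comparisons. It had 4 bins of 50 kb with at least 6 loops, of 632 bins with any loop (0.633%). These 4 bins had 15 sham and 18 MCAO loops in all, and the fullest had 11.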

How the results depend on the processing

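With 1 library per group no replicate could be left out. No paired analysis was possible because each group has 1 library. Leaving out near-duplicate loops changed nothing, since no loop overlapped another of its list at both anchors. With bins starting 25 kb later, 28.4% of hubs had at least 2-fold more loops in MCAO and 5.56% of housekeeping genes overlapped a hub, while 20 of 22 results stayed within counting error. With bins of 25 kb there were 614 hubs, 68.1% with a coding gene and 73.3% one-sided, the MCAO median span was 453 kb, and the other library had 2.69 MCAO or 1.94 sham loops at bins chosen in one list. Gene list shares were then 32.6% for transcription factors, 26.2% for axon guidance, 27.3% for adhesion, 12.1% for receptors, 0 for hypoxia, 5.56% for housekeeping and 2.40% for all genes. With 8 or more loops there were 391 hubs, a loop ratio of 1.12, medians of 539 kb in sham and 501 kb in MCAO, 59.6% one-sided, and 2-fold shares of 18.4% and 8.18%. With paired loops counted once there were 677 hubs, medians of 519 kb and 450 kb, 59.2% one-sided and a 2-fold share of 13.3% toward sham. With at least 15 PETs there were 204 hubs, a ratio of 1.08, 69.6% with a coding gene, medians of 700.4 kb and 676 kb, 74.0% one-sided, 2-fold shares of 25.0% and 19.1%, and 2.68 and 2.08 loops in the other library. With MCAO loops scaled to the sham depth, which kept 9580 MCAO loops of at least 12 PETs, there were 791 hubs, the ratio turned to 0.852, the medians were 520 kb and 513 kb, the 2-fold shares 16.3% and 29.5%, and the other library had 2.10 and 2.80 loops. With anchors counted in every bin they overlap there were 3064 hubs, 69.4% with a coding gene, 58.1% one-sided, a 2-fold share of 27.4% toward MCAO and 2.65 sham loops at bins chosen in MCAO. A 4-fold limit, chosen after seeing the data, gave 7.16% and 2.82%. The scaled depth, which removes MCAO loops only, also turned the order of the 2-fold shares, of the loops in the other library and of the counts of hubs with more loops in either list. Bins starting 25 kb later put housekeeping genes below all genes (6.27%). The cause of the other shifts was not tested.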
